A study of Mus musculus with 16 samples.

Results

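RNA polymerase III was followed through the transcripts of 9 of its subunit genes, Polr3a, Polr3b, Polr3c, Polr3d, Polr3e, Polr3f, Polr3g, Polr3k and Crcp, out of the 33072 genes of the count table. The genes were listed by name, with earlier results of these data known, and each symbol was matched to an Ensembl identifier of the mouse genome build GRCm38. Messenger RNA was sequenced from 16 samples in 4 groups of 4 biological replicates. The groups were 4T1 cells with vehicle (DMSO; samples 3, 7, 11 and 15), 4T1 cells with CIX (samples 4, 8, 12 and 16), 67NR cells with vehicle (samples 1, 5, 9 and 13) and 67NR cells with CIX (samples 2, 6, 10 and 14). Both lines were grown from the same mouse mammary carcinoma, and 4T1 is highly metastatic whereas 67NR is non-metastatic. CIX, made from an ω3 polyunsaturated fatty acid, inhibits cytosolic phospholipase A2 α, the enzyme that frees arachidonic acid from membranes, and was given at 15 µM for 24 h. Each metastatic phenotype was represented by a single cell line, and the inhibitor by a single dose and time.

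RNA polymerase III transcribes short untranslated RNAs, among them the transfer RNAs, the smallest ribosomal RNA and the spliceosomal U6 RNA. The products of Polr3a and Polr3b form its active centre. Polr3d and Polr3e encode a heterodimer that is related to the general factor TFIIF of RNA polymerase II, Polr3c, Polr3f and Polr3g encode a heterotrimer that contacts the initiation factors, and the product of Polr3k acts in cleavage and termination. Crcp encodes a subunit of the stalk and was first described as a component of the receptor for calcitonin gene-related peptide. The RNAs that the enzyme makes are mostly without a poly(A) tail, the libraries were selected for poly(A), and 0 of 8 listed transcripts of the enzyme had a matching entry, so its output was not analysed here.

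In short, untreated 4T1 cells held less Crcp, Polr3e, Polr3f and Polr3c transcript and more Polr3d than untreated 67NR cells. These differences passed an adjusted p of 0.001, as did 40.0% of all genes. With CIX, Crcp was 4.30-fold higher and Polr3d 2.06-fold lower in 4T1 cells, at a threshold that 9.34% of all genes passed. The call of Polr3d held in 2 of 8 fits with a sample left out. At 0.05, 5 of 9 genes were higher and 2 lower there, against 21.9% and 20.8% of all genes. In 67NR cells 0 of 9 subunit genes passed an adjusted p of 0.001 with CIX, which 0.389% of all genes passed, and 3 of 9 passed 0.05 (1 higher and 2 lower, against 8.51% and 9.26% of all genes). Polr3g passed an adjusted p of 0.05 in none of the 4 comparisons.

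The upstream sequences of 4 subunit genes are shown because 3 of these genes (Polr3e, Polr3f and Polr3c) were lower in untreated 4T1 than in untreated 67NR cells and the other (Polr3b) was higher there, at an adjusted limma p below 0.05 but not below 0.001. Each run holds the 250 bases before the RefSeq transcription start, written in the direction of transcription (GRCm38.p6, credited to RefSeq). The RefSeq table held a promoter for 6 of the 9 genes. Crcp, Polr3d and Polr3a had none there, so their promoters were not searched for motifs. Capitals mark matches on either strand to the E-box CACGTG, to the GC box GGGCGG and to the B box consensus of transfer RNA genes (with any base at its eighth and ninth letters), the last of which was added after the Polr3e sequence had been seen.
Polr3e, chr7:120917528-120917777, plus strand: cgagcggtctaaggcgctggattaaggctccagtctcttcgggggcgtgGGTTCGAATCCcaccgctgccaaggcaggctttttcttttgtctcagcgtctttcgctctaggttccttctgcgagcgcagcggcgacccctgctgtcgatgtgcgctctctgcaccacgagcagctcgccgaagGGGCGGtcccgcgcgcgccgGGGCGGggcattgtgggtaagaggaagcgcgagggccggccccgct
Polr3f, chr2:144527495-144527744, plus strand: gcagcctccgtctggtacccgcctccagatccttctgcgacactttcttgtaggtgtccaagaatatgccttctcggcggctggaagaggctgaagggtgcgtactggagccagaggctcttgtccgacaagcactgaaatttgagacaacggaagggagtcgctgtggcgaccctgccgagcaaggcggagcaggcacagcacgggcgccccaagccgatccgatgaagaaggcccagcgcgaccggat
Polr3c, chr3:96727440-96727689, minus strand: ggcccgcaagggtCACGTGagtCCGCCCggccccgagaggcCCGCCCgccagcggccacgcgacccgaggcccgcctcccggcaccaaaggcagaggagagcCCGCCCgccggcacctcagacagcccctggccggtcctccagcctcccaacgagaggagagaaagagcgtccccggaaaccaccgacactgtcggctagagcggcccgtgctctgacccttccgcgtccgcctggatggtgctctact
Polr3b, chr10:84622048-84622297, plus strand: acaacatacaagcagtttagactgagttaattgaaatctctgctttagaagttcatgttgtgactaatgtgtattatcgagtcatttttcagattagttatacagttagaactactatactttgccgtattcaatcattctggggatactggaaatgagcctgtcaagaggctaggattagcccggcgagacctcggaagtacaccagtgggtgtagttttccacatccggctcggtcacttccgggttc

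The Polr3e window started inside a transfer RNA gene. The RefSeq annotation places n-TLaag4, a leucine transfer RNA gene of 82 bases, at chr7:120917517-120917598, so that its end lies 180 bases before the start of Polr3e. The B box in capitals, at -201 from the start, belongs to that gene. Of all 32851 promoter windows of 300 bases (250 before and 50 after the start), 10 (0.0304%) overlapped 1 of the 430 annotated transfer RNA genes and 40 (0.122%) held the B box. An E-box was found in the windows of Polr3c (at -237) and Polr3e (at 6 after the start) and in 7.15% of all windows. The Polr3c window is counted from the RefSeq start at 96727439. It also covers the start of Polr3c in the GENCODE annotation (96727628) and that of Rnf115 on the opposite strand (96727664). The GC box was found in the windows of Polr3c, Polr3e and Polr3g and in 35.7% of all windows, CCAAT was found in that of Polr3k and in 37.4% of all windows, and the palindromic motif of NRF1 was in none of the 6 windows and in 0.971% of all windows. These matches are descriptions of the letters and not of binding.

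Depth ran from 21715700 to 29450629 estimated counts per sample. Before scaling, every 4T1 CIX sample (24046705 to 29450629) was deeper than every 4T1 vehicle sample (22483670 to 23875921). All 9 genes passed the filter on low values in every comparison, and the lowest count of any of them was 105, for Polr3f in a 4T1 vehicle sample. Over all genes, 67NR vehicle sample 13 stood apart from its group (chi-square per gene of 84.6 to 98 with the other 3 samples, which had 16.7 to 19.9 among themselves). 4T1 CIX sample 4 stood apart as well, at 60 to 89.7 with the other 3 samples, which had 25.2 to 42.4 among themselves. Among 4T1 vehicle samples the values ran from 30.8 to 108. Without sample 13, 0, 1 and 5 subunit genes were called in 67NR, in the interaction and between the untreated lines, the same numbers as with it. Markers of the lines followed their labels in sum, with Fn1 as an exception. Of 5 epithelial markers, 4 reached a mean of 1 CPM (counts scaled to the same library total) in 4T1 with vehicle and 5 with CIX, with summed levels of 2411 to 2608 CPM and 2519 to 2763 CPM, against summed levels of 1.07 to 5.19 CPM over both 67NR groups. Of 5 mesenchymal markers, 3 reached that level in both 4T1 groups and 5 in both 67NR groups, with summed levels of 2492 to 3307 CPM (4T1 vehicle), 4322 to 5226 CPM (4T1 CIX), 6037 to 6988 CPM (67NR vehicle) and 9171 to 10060 CPM (67NR CIX). The mesenchymal Fn1 was at 1654 ± 348 CPM in untreated 4T1 against 1272 ± 76.1 CPM in untreated 67NR (adjusted p = 0.0464, below 0.05 in 3 of 8 fits with a sample left out). With CIX in 4T1, mesenchymal Vim (log2 fold change 1.24, adjusted p = 4.25e-05) and Twist1 (0.92, 0.000459) rose and epithelial Epcam fell (-0.78, 0.000127) at 0.001, whereas the other tested markers of these lists (Fn1, Cdh1, Krt8 and Krt18) did not pass it. Cdh2 and Zeb1, at 158 and 56.1 CPM in untreated 67NR cells, had 0 and 0 to 15 counts per sample in 4T1 cells with CIX. Of 3 leukocyte markers, Cd68 was higher with CIX in 4T1 (68.9 ± 15.2 to 165 ± 29.7 CPM, adjusted p = 0.000683) and in 67NR (8.82 ± 2.00 to 37.4 ± 2.81 CPM, adjusted p = 0.000297), while the pan-leukocyte Ptprc was at a mean of at most 1.22 CPM and Cd3e of at most 0.0693 CPM in any group. With a sample left out, the calls of Vim and Epcam held in 8 of 8 fits, that of Twist1 in 1, and those of Cd68 in 2 (4T1) and 3 (67NR). The part of these markers in the results given here was not tested. The 2 endothelial markers summed to at most 2.41 CPM. In bulk RNA, fewer cells of a type and less RNA per cell cannot be told apart.

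The level of each gene was first described in every sample as CPM after scaling with TMM over all 16 samples.

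**Figure D1:**
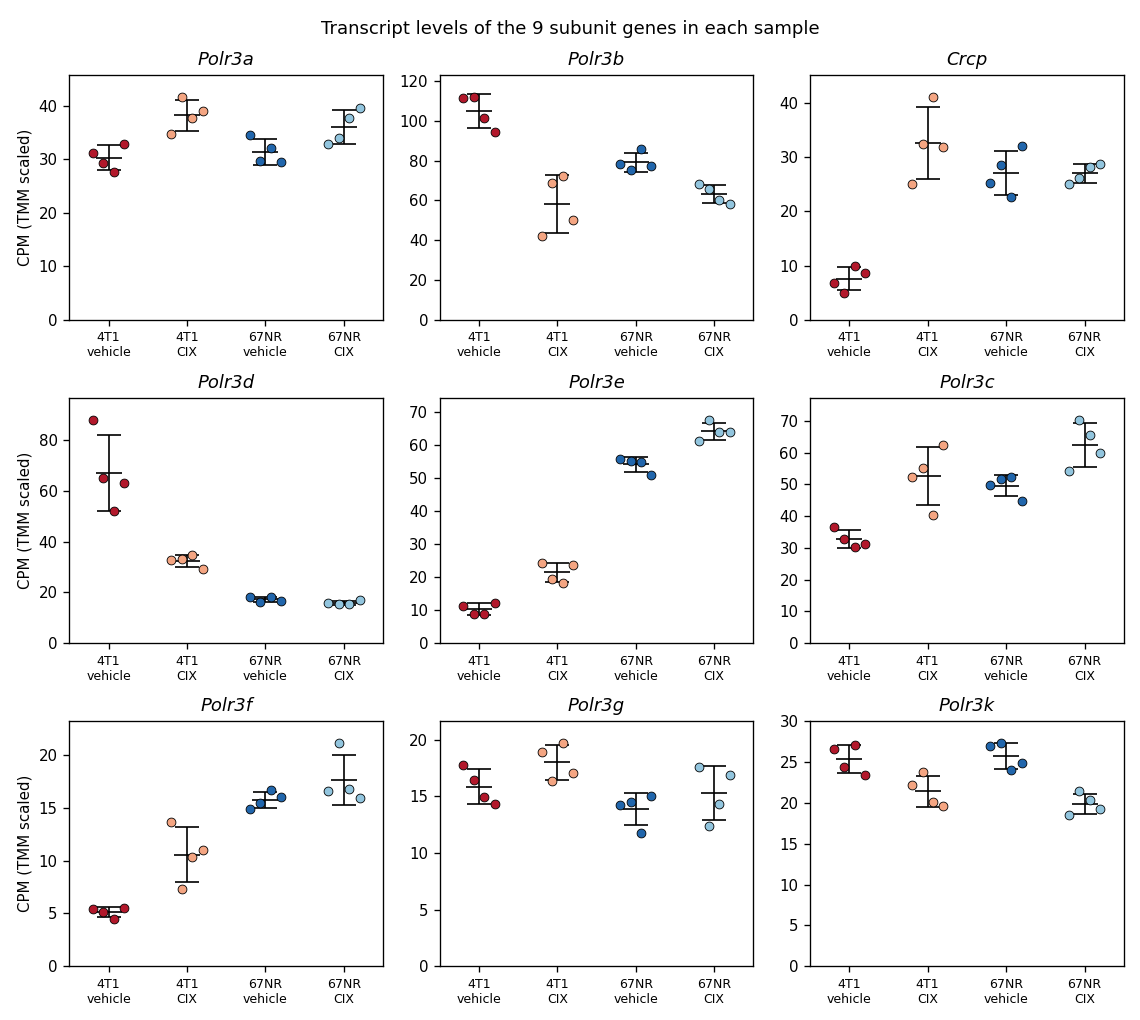
CPM (y axis, from 0) of each subunit gene in each of the 4 groups, with points for the 4 samples of a group and bars for the mean and SD. Crcp, Polr3e, Polr3f and Polr3c were lowest in 4T1 with vehicle, and Polr3b and Polr3d were highest there.

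Crcp, the stalk subunit, had the largest fold change of the 9 genes with CIX in 4T1. Its level was 6.70, 5.03, 10.0 and 8.69 CPM in 4T1 with vehicle and 25.1, 32.5, 41.1 and 31.8 CPM in 4T1 with CIX. The 67NR samples held 25.2, 28.5, 22.6 and 32.0 CPM with vehicle and 25.1, 26.1, 28.2 and 28.7 CPM with CIX. Thus all 4 vehicle samples of 4T1 lay below the other 12 samples, among which the 3 remaining groups overlapped. The group means were 7.61 ± 2.19 (SD, n = 4) CPM in 4T1 with vehicle, 32.6 ± 6.56 CPM in 4T1 with CIX, 27.1 ± 4.07 CPM in 67NR with vehicle and 27.0 ± 1.73 CPM in 67NR with CIX.

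Polr3d and Polr3e encode the partners of a heterodimer, and their levels were ordered in opposite ways. Polr3d was at 87.9, 65.2, 52.0 and 63.2 CPM in 4T1 with vehicle, at 32.6, 33.0, 34.7 and 29.3 CPM in 4T1 with CIX, at 18.2, 16.1, 18.1 and 16.8 CPM in 67NR with vehicle and at 15.8, 15.5, 15.4 and 16.9 CPM in 67NR with CIX. Both 4T1 groups were apart from each other and from 67NR, whereas the 67NR groups overlapped. Polr3e was at 11.4, 8.91, 8.64 and 12.2 CPM in 4T1 with vehicle, at 24.2, 19.5, 18.2 and 23.6 CPM in 4T1 with CIX, at 55.6, 55.0, 55.0 and 50.8 CPM in 67NR with vehicle and at 61.3, 67.5, 63.8 and 63.8 CPM in 67NR with CIX. None of the 4 groups overlapped for Polr3e, and the order of their means was 10.3, 21.4, 54.1 and 64.1 CPM.

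In the heterotrimer, Polr3f and Polr3c were lowest in untreated 4T1 cells. Polr3f was at 5.41, 5.14, 4.50 and 5.51 CPM in 4T1 with vehicle and at 13.6, 7.30, 10.4 and 11.1 CPM with CIX. In 67NR it was at 14.9, 15.5, 16.7 and 16.0 CPM with vehicle and at 16.6, 21.1, 16.8 and 16.0 CPM with CIX. Both 4T1 groups were apart from each other and below the 67NR groups, which overlapped. Polr3c was at 36.6, 32.8, 30.1 and 31.3 CPM in 4T1 with vehicle and at 52.3, 55.3, 40.5 and 62.5 CPM with CIX. Its 67NR levels were 49.7, 51.6, 52.3 and 44.8 CPM with vehicle and 54.2, 70.2, 65.6 and 60.0 CPM with CIX. The vehicle samples of 4T1 were below all others for Polr3c, 4T1 with CIX overlapped both 67NR groups, and the 67NR groups did not overlap each other. Polr3g, whose product is the part of the heterotrimer that Polr3gl can replace, varied little, with means from 13.9 ± 1.44 CPM (67NR vehicle) to 18.0 ± 1.53 CPM (4T1 CIX) and neighbouring groups that overlapped throughout.

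The genes of the active centre differed in behaviour. Polr3b was at 112, 112, 102 and 94.3 CPM in 4T1 with vehicle and at 42.1, 68.9, 72.3 and 50.3 CPM with CIX. In 67NR its level was 78.3, 75.2, 86.0 and 77.4 CPM with vehicle and 68.1, 65.8, 60.3 and 58.5 CPM with CIX. The groups with vehicle were apart from each other and above the groups with CIX, which overlapped. Polr3a had means between 30.3 ± 2.27 CPM (4T1 vehicle) and 38.2 ± 2.89 CPM (4T1 CIX), and each group overlapped its neighbour in the order of means. Polr3k, whose product acts at termination, had means of 25.4 ± 1.75 and 25.8 ± 1.60 CPM in 4T1 and 67NR with vehicle and of 21.4 ± 1.90 and 19.9 ± 1.24 CPM with CIX, and each group overlapped its neighbour in the order of means.

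Per transcript length, the subunit genes were less even in untreated 4T1 cells than in the other groups. Transcript levels scaled by length to the same sum in every sample (TPM) were approximated with the mean transcript length of each gene, so that genes could be compared with each other. In 4T1 with vehicle the mean level ran from 4.35 ± 0.523 TPM for Polr3f to 88.9 ± 20.5 TPM for Polr3d. The ratio of the highest to the lowest of the 9 genes was 18.0 to 25.5 in the samples of this group, against 4.11 to 8.60 in 4T1 with CIX, 4.09 to 5.79 in 67NR with vehicle and 3.50 to 5.81 in 67NR with CIX. The highest gene was Polr3d or Polr3b in 4T1 with vehicle, Crcp or Polr3c in 4T1 with CIX, Polr3b in 67NR with vehicle and Polr3c in 67NR with CIX. The lowest was Polr3f in each 4T1 sample and Polr3f or Polr3g in each 67NR sample. The sum over the 9 genes was 265 ± 28.7 TPM in 4T1 with vehicle, 243 ± 14.0 TPM in 4T1 with CIX, 243 ± 7.96 TPM in 67NR with vehicle and 246 ± 12.9 TPM in 67NR with CIX, and the ranges of these sums overlapped. These values are descriptions with no test, and with the length of the longest transcript the mean ratios were 28.2, 10.7, 5.96 and 6.81 in the same order of groups.

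**Figure D2:**
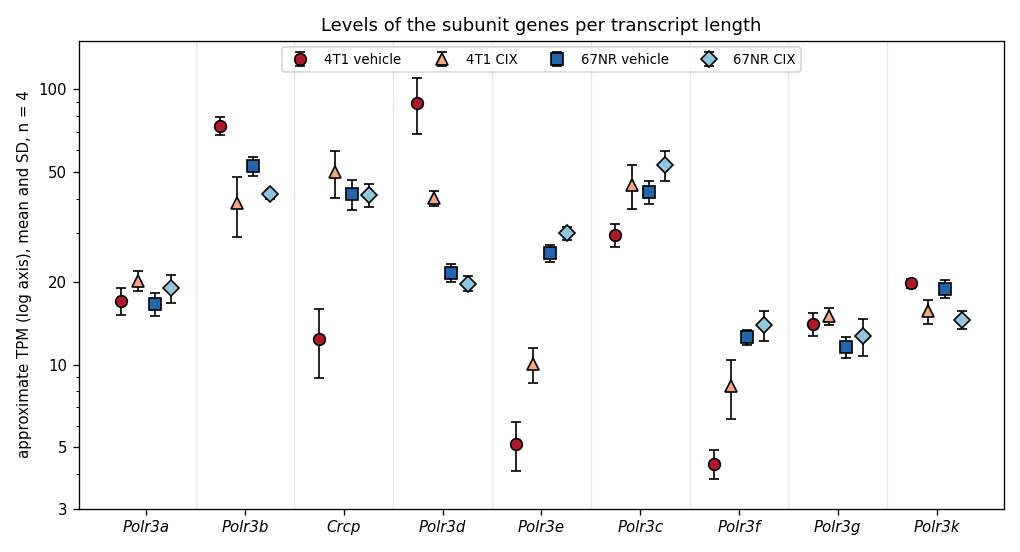
Approximate TPM (y axis, logarithmic) of the 9 subunit genes in the 4 groups, as means with SD over 4 samples. The symbols of 4T1 with vehicle spread from 4.35 TPM (Polr3f) to 88.9 TPM (Polr3d), and those of 67NR with vehicle from 11.6 TPM (Polr3g) to 52.4 TPM (Polr3b).

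To see which subunit genes responded to the inhibitor in the metastatic line, the 4 samples with CIX were set against the 4 with vehicle by limma-voom, over 11659 genes and with Benjamini-Hochberg adjustment over all of them. Crcp rose by a log2 fold change of 2.11 (SE 0.23, 95% interval 1.58 to 2.63, adjusted p = 0.000204). Polr3d fell by 1.04 on the log2 scale (SE 0.16, adjusted p = 0.000992). These 2 of 9 genes passed the threshold of 0.001, which 9.34% of all genes tested passed. At an adjusted p of 0.05, Polr3e (log2 fold change 1.04 ± 0.17, SE, adjusted p = 0.00120), Polr3f (1.00 ± 0.22, 0.00525), Polr3c (0.65 ± 0.15, 0.00628) and Polr3a (0.32 ± 0.11, 0.0385) were also higher, so that 5 of 9 were higher against 21.9% of all genes. Polr3b (log2 fold change -0.89 ± 0.17, SE, adjusted p = 0.00285) joined Polr3d among the lower genes, 2 of 9 against 20.8% of all genes. The vehicle and CIX samples did not overlap for 7 of 9 genes, against 39.9% of all genes. Polr3k (log2 fold change -0.27, 95% interval -0.52 to -0.01, adjusted p = 0.0876) and Polr3g (0.17, 95% interval -0.12 to 0.45, adjusted p = 0.309) passed neither threshold.

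Crcp kept its call in 4T1 when any of the 8 samples was left out, with log2 fold changes between 1.92 and 2.25. The call of Polr3d was at the threshold. It was lost without sample 4 (adjusted p = 0.00224), 7 (0.00398), 8 (0.00374), 12 (0.00267), 15 (0.00323) or 16 (0.00412), while the log2 fold change stayed between -1.16 and -0.90. At 0.05 the call of Polr3a was lost without sample 7, 8, 11, 12 or 16 (adjusted p from 0.0612 to 0.0995), and those of the other 6 genes held.

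In non-metastatic 67NR cells the same comparison called 0 of 9 subunit genes with limma-voom at 0.001, where 0.389% of 11560 genes were called. Of the 9, 4 had an unadjusted p below 0.05, and edgeR and DESeq2 called 0. At an adjusted p of 0.05, 1 gene was higher, Polr3e (log2 fold change 0.23 ± 0.06, SE, adjusted p = 0.0330), against 8.51% of all genes. Lower were 2 genes, Polr3k (-0.39 ± 0.08, adjusted p = 0.0140) and Polr3b (-0.35 ± 0.08, adjusted p = 0.0165, but 0.137 in a common fit of all samples), against 9.26% of all genes. Without any one sample except sample 2, Polr3e no longer passed 0.05 (adjusted p from 0.0515 to 0.0950). Polr3c reached a log2 fold change of 0.31 at an adjusted p of 0.0501, and passed 0.05 without sample 2 (0.39, adjusted p = 0.0173). The groups did not overlap for these 4 genes of the 9, against 24.0% of all genes. For Crcp, the log2 fold change was -0.01 with a 95% interval of -0.29 to 0.27 (adjusted p = 0.967).

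Whether the lines responded differently was tested with the interaction of line and treatment, over 12605 genes in the 16 samples. The response of Crcp was 2.11 higher in 4T1 on the log2 scale (SE 0.26, 95% interval 1.56 to 2.67, adjusted p = 3.93e-05). It was the only 1 of 9 subunit genes called at 0.001, where 7.86% of all genes were called, and it was called without any single sample too. At an adjusted p of 0.05 the response was more positive in 4T1 for 3 of 9 genes, Crcp, Polr3e (difference 0.81 ± 0.16, SE, adjusted p = 0.00153) and Polr3f (0.86 ± 0.23, 0.0121, but 0.0536 with sample weights), against 15.1% of all genes. It was more negative for 2 of 9, Polr3d (-0.90 ± 0.20, 0.00311) and Polr3b (-0.55 ± 0.19, 0.0440), against 14.2% of all genes. Without sample 3 or 11 the response of Polr3d also passed 0.001 (adjusted p = 0.000964 and 0.000531), as did that of Polr3e without sample 12 (0.000843). Polr3b kept an adjusted p below 0.05 in 4 of 16 fits with a sample left out (without sample 8, 9, 12 or 15) and reached 0.0938 in the others. For Polr3c, Polr3a, Polr3g and Polr3k a difference between the lines was not detected (adjusted p from 0.167 to 0.868), with 95% intervals that reached from -0.33 to 0.71 on the log2 scale. Without sample 12 the interaction of Polr3c passed 0.05 (difference 0.47, adjusted p = 0.0263).

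The untreated lines were compared over the 8 vehicle samples and 11040 genes, 4T1 against 67NR. Polr3e was 5.34-fold lower in 4T1 (log2 fold change -2.42 ± 0.12, SE, adjusted p = 4.78e-07), Polr3f 3.09-fold lower (-1.63 ± 0.12, 3.84e-06), Crcp 3.65-fold lower (-1.87 ± 0.22, 5.39e-05) and Polr3c 1.53-fold lower (-0.61 ± 0.09, 0.000290). Polr3d was 3.79-fold higher (1.92 ± 0.17, 1.11e-05). Together 5 of 9 genes were called at 0.001, where 40.0% of all genes were called. At 0.05, 2 of 9 were higher in 4T1, with Polr3b added (0.39 ± 0.09, adjusted p = 0.00303), against 33.3% of all genes, and 4 of 9 were lower, against 34.1%. The groups did not overlap for 6 of 9 genes, against 62.0% of all genes, so that differences between these lines were common in general. Polr3c lost its call without sample 7 (adjusted p = 0.00175), 9 (0.00104), 11 (0.00134) or 15 (0.00181), and on either log2 TPM scale (0.00287). Polr3g (log2 fold change 0.19, 95% interval -0.10 to 0.48), Polr3a (-0.06, -0.28 to 0.15) and Polr3k (-0.03, -0.24 to 0.18) were not separated between the lines.

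**Figure D3:**
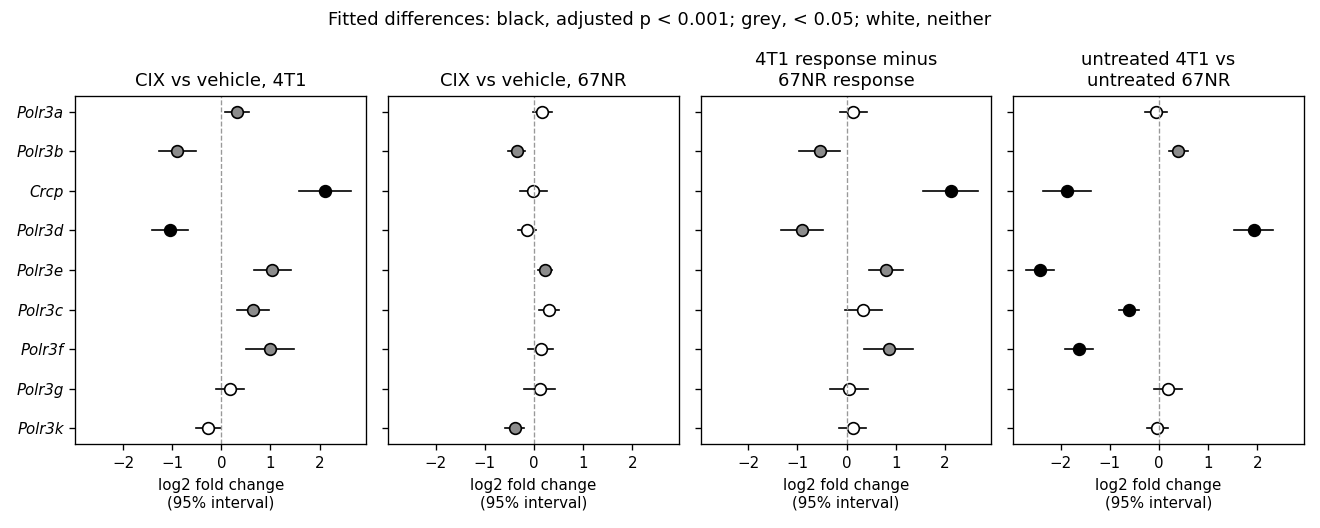
Log2 fold change (x axis) of each subunit gene with its 95% interval in the 4 comparisons, filled black at an adjusted p below 0.001, grey below 0.05 and white otherwise. In the first panel Crcp lies at 2.11 and Polr3d at -1.04, and in the last panel these genes lie at -1.87 and 1.92.

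The comparison of CIX with vehicle in 4T1 and that of the untreated lines use the same 4 vehicle samples of 4T1, so that their fold changes are not independent of each other. Side by side, the log2 fold changes with CIX in 4T1 and between the untreated lines were 2.11 and -1.87 for Crcp, 1.04 and -2.42 for Polr3e, 1.00 and -1.63 for Polr3f, 0.65 and -0.61 for Polr3c, -1.04 and 1.92 for Polr3d, -0.89 and 0.39 for Polr3b, 0.32 and -0.06 for Polr3a, 0.17 and 0.19 for Polr3g, and -0.27 and -0.03 for Polr3k. After CIX, the level of Polr3e in 4T1 (21.4 ± 2.99 CPM) was still below that of either 67NR group, and the level of Polr3d (32.4 ± 2.24 CPM) was still above them. The level of Crcp (32.6 ± 6.56 CPM) overlapped both 67NR groups.

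**Figure D4:**
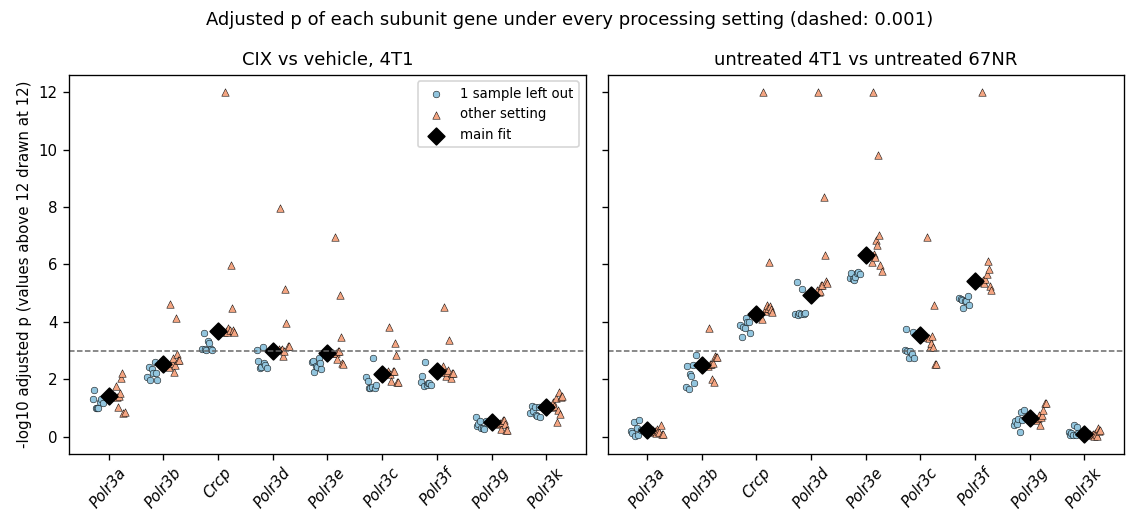
Adjusted p on a -log10 scale (y axis, values above 12 drawn at 12) of each subunit gene, for CIX against vehicle in 4T1 (left) and for the untreated lines (right), in the main fit (diamonds), with 1 sample left out (circles) and under other processing settings (triangles). Every symbol of Crcp lies above the dashed line at 0.001 in both panels, whereas those of Polr3d lie on both sides of it on the left.

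The other 9 subunits of the enzyme include Polr3gl and subunits shared with RNA polymerase I or II. With CIX in 4T1, 1 of these 9 was called (9.34% of all genes), Polr2h (log2 fold change -0.87 ± 0.12, SE, adjusted p = 0.000564), a subunit of all 3 nuclear polymerases, whose call held without sample 11 only (highest adjusted p 0.00280, without sample 7). Their median log2 fold change was -0.19, beside 0.32 for the 9 genes above and -0.01 for all genes tested. Between the untreated lines 5 of the 9 were called (40.0% of all genes), among them Polr2l (log2 fold change -1.85 ± 0.12) and Polr2h (1.31 ± 0.12). Of the words of 31 bases in the transcripts of Polr3gl, 8.07% also occur in other genes, against at most 4.15% for the 9 genes above. In 67NR with CIX 0 of the 9 were called with limma-voom, against 0.389% of all genes (3 at an unadjusted p below 0.05, 0 with edgeR and 2 with DESeq2), and the lowest adjusted p was that of Polr2l (0.00243, log2 fold change -0.60).

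Polr3g and Polr3gl encode alternative forms of the same subunit. The share of Polr3g in their summed TPM was 40.2% ± 5.19 (SD, n = 4) in 4T1 with vehicle, 40.8% ± 2.44 in 4T1 with CIX, 47.6% ± 0.727 in 67NR with vehicle and 49.3% ± 8.17 in 67NR with CIX. The difference between the untreated lines was -7.48 percentage points (exact permutation test, two-sided, p = 0.0857, adjusted over 3 comparisons p = 0.257). The samples ran from 36.3% to 47.8% in 4T1 and from 46.7% to 48.3% in 67NR. With 4 samples against 4, the smallest p of this test cannot bring 1 comparison alone below 0.05 after adjustment over 3. The test therefore could not decide whether the share differed. With CIX the share differed by 0.648 points in 4T1 (exact permutation p = 0.914, adjusted p = 0.914) and by 1.65 points in 67NR (exact permutation p = 0.657, adjusted p = 0.914). Polr3gl itself was 1.55-fold higher in untreated 4T1 than in untreated 67NR (log2 fold change 0.63 ± 0.14, SE, adjusted p = 0.00364), which did not reach the level at which genes were called. Without sample 3 it did (0.76, adjusted p = 0.000844).

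The initiation factors bring the enzyme to its promoters. Of 16 genes of TFIIIA, TFIIIB, TFIIIC and SNAPc, 0 were called in 4T1 with limma-voom at 0.001, against 9.34% of all genes, although 10 had an unadjusted p below 0.05, edgeR called 0 and DESeq2 5. The lowest adjusted p-values were those of Gtf3c3 (log2 fold change 1.39, adjusted p = 0.00382) and Snapc1 (-0.59, 0.00400), and Snapc1 was the 1 factor of 16 whose response differed between the lines at 0.001, against 7.86% of all genes (difference -0.85 ± 0.14, SE, adjusted p = 0.000471, called in 7 of 16 fits with a sample left out). Brf1, the part of TFIIIB that recruits the enzyme at most of its promoters, had a log2 fold change with CIX in 4T1 of 0.12 (95% interval -0.16 to 0.41, adjusted p = 0.458) and was 2.23-fold lower in untreated 4T1 than in 67NR (-1.16 ± 0.08, adjusted p = 2.24e-06). Gtf3c6, of TFIIIC, was 2.37-fold higher there (1.24 ± 0.15, 8.03e-05).

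Maf1 encodes the general repressor of the enzyme. Its transcript was at 62.2 ± 17.1 and 76.0 ± 3.42 CPM in 4T1 with vehicle and CIX, and at 135 ± 13.6 and 128 ± 7.39 CPM in 67NR. Its log2 fold change with CIX in 4T1 was 0.31 (95% interval -0.06 to 0.68, adjusted p = 0.156) and 0.48 without sample 11 (adjusted p = 0.00819), and it was lower in untreated 4T1 than in 67NR (-1.16 ± 0.17, adjusted p = 0.000239, above 0.001 without sample 3, 7 or 15). Of the 6 genes listed as regulators of the enzyme or binders of its transcripts, 1 was called with CIX in 4T1 (9.34% of all genes), Larp7 (-0.80 ± 0.12, 0.000740), which encodes the protein that stabilises the 7SK RNA, and its call held without sample 11 only (highest adjusted p 0.00359, without sample 7). Trove2, which encodes the Ro autoantigen, was higher in untreated 4T1 (0.73 ± 0.10, 0.000190), though not without sample 1, 5 or 13 (0.00112 to 0.00159).

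The genes that act on the enzyme's products moved in both directions as well. Of 18 genes for end processing and splicing of transfer RNA precursors, 17 were tested in 4T1, where 2 were called higher and 2 lower, against 9.34% of all genes in either direction. The highest was Rpp30, of ribonuclease P, which went from 3.97 ± 0.659 to 18.9 ± 1.64 CPM with CIX in 4T1 (log2 fold change 2.23 ± 0.16, SE, adjusted p = 4.45e-05) and from 16.8 ± 0.615 to 13.1 ± 1.36 CPM in 67NR (-0.38, 0.0304, below 0.05 in 3 of 8 fits with a sample left out). Clp1, an RNA kinase of transfer RNA splicing, was lower with CIX in 4T1 (-1.09 ± 0.13, 0.000279). Among 5 genes of the pathway that senses RNAs made by the enzyme from foreign DNA, Ddx58 (which encodes RIG-I) and Trim25 (its ubiquitin ligase) were lower with CIX in 4T1 and Irf3 was higher, 3 of 5 called against the same 9.34%. Ddx58 went from 136 ± 26.0 to 44.8 ± 8.71 CPM (log2 fold change -1.62 ± 0.17, adjusted p = 0.000161), Trim25 from 301 ± 37.9 to 120 ± 9.74 CPM (-1.34 ± 0.11, 6.70e-05) and Irf3 from 15.9 ± 2.01 to 39.4 ± 6.26 CPM (1.28 ± 0.15, 0.000297). With a sample left out, the calls of Rpp30, Ddx58 and Trim25 in 4T1 held, whereas that of Clp1 was lost without sample 7, 8 or 15 and that of Irf3 without sample 7, 8, 15 or 16 (adjusted p up to 0.00166 and 0.00175).

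Subunits of the other nuclear polymerases were examined in the same way with CIX in 4T1, where 9.34% of all genes were called. Of 6 subunits found only in RNA polymerase I, 0 were called with limma-voom (4 at an unadjusted p below 0.05, 0 with edgeR and 2 with DESeq2), and 3 were lower at an adjusted p of 0.05, against 20.8% of all genes, with Twistnb (log2 fold change -0.68, adjusted p = 0.00192) first. Of 8 subunits found only in RNA polymerase II, 1 was called, Polr2g (-0.77 ± 0.10, 0.000370, lost without sample 7, 8, 11, 12, 15 or 16), and the response of this gene differed between the lines (difference -0.80 ± 0.10, adjusted p = 6.05e-05). The median size of the log2 fold change, without its sign, was 0.89 for the 9 subunit genes of RNA polymerase III followed here, 0.31 for the other 9 subunits, 0.57 for those of RNA polymerase I, 0.30 for those of RNA polymerase II and 0.39 for all genes tested. For the 9 genes it was 0.17 in 67NR, beside 0.20 for all genes, and 0.61 between the untreated lines, beside 0.64. A difference between these lists was not tested. The 9 genes were chosen with earlier results of these data known, and several are in the study's lists of genes changed by CIX in 4T1. Their larger median in 4T1 is therefore no finding of its own.

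**Figure D5:**
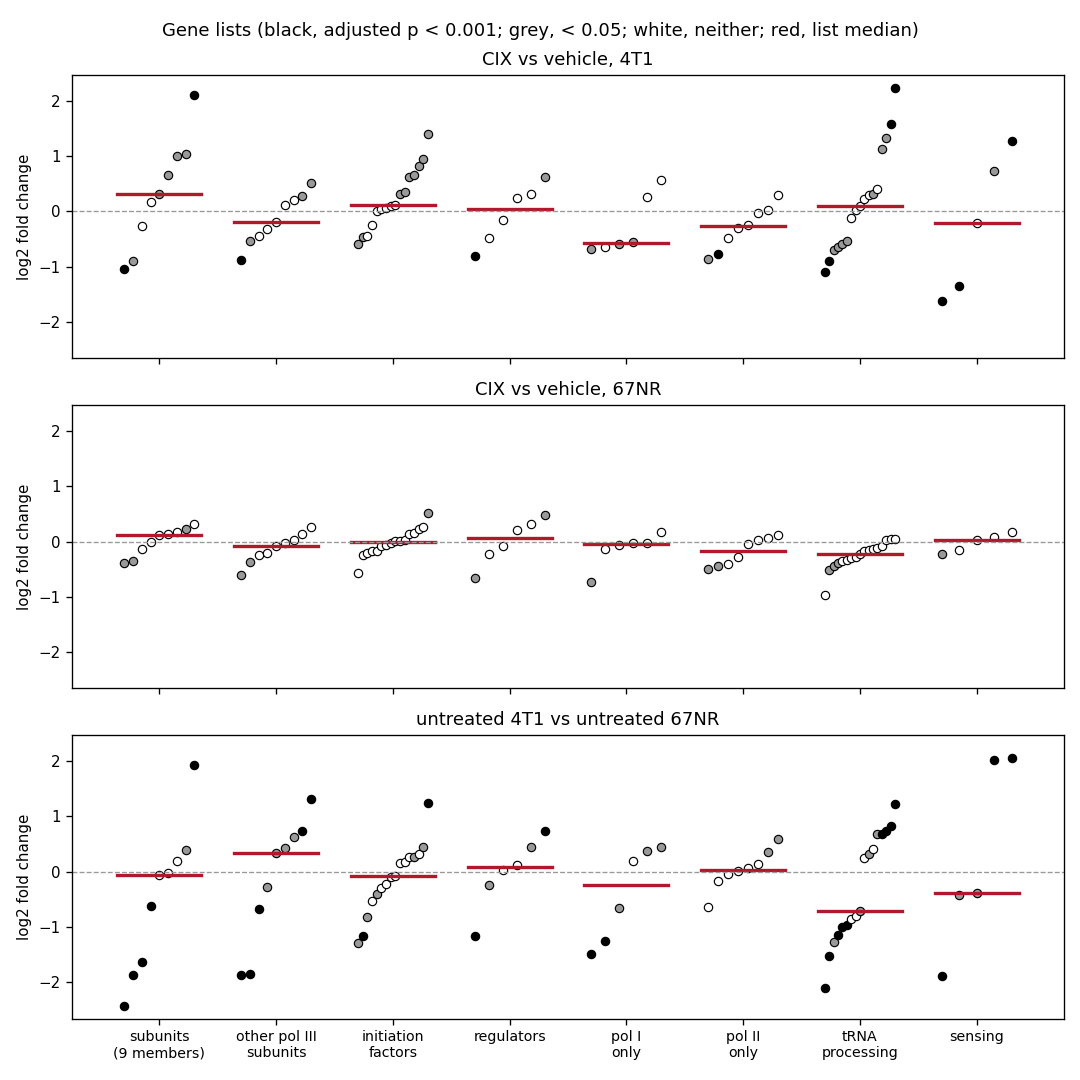
Log2 fold change (y axis, the same scale in all panels) of each gene of the 8 lists, with the list's median as a red line, for CIX against vehicle in 4T1 (top) and 67NR (middle) and for the untreated lines (bottom). Points are black at an adjusted p below 0.001, grey below 0.05 and white otherwise, and the 9 subunit genes run from -1.04 to 2.11 in the top panel and from -0.39 to 0.31 in the middle panel.

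Several subunit genes share a start region with a gene on the opposite strand. Starts were those of the GENCODE annotation here. Within 1000 bases of a member's start lay the start of Asl (43 bases from Crcp), Rnf115 (36 bases from Polr3c), Rps24 (67 bases from Polr3a), Dzank1 (304 bases from Polr3f) and Mblac2 (328 bases from Polr3g). With CIX in 4T1, Asl, which encodes argininosuccinate lyase, had a log2 fold change of -0.13 (95% interval -0.72 to 0.46), or 0.15 without sample 11, beside 2.11 for Crcp. Rnf115, which encodes a ubiquitin ligase, had -0.04 (-0.37 to 0.28) beside 0.65 for Polr3c. Rps24, a gene of the small ribosomal subunit, was higher by 0.25 (adjusted p = 0.0189, and 0.0511 to 0.0602 without sample 7, 12, 15 or 16) beside 0.32 for Polr3a. Mblac2 was at -0.15 (-0.68 to 0.38) in 4T1 and was higher with CIX in 67NR at an adjusted p of 0.05 (0.66, 0.00368), where Polr3g had a log2 fold change of 0.12 (adjusted p = 0.614). Dzank1 was below the filter, with group means from 1.00 to 3.93 CPM. The starts of Gm17249 (286 bases from Polr3b, with 287 bases of overlap) and Mir320 (63 bases from Polr3d) were near as well, and these genes were not analysed here.

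For the 5 subunit genes called in any comparison, the genes with the most similar profile were those with the smallest root mean square difference of log2 CPM, centred on the mean of each gene, over the 16 samples and among 12605 genes. For Crcp these were Mpi (difference 0.215), Rpp30 (0.272) and Kif7 (0.275), where Crcp itself varied by 0.882 around its mean. Mpi was at a mean of 5.63 CPM in 4T1 with vehicle, 28.3 CPM in 4T1 with CIX, 22.1 CPM in 67NR with vehicle and 23.4 CPM in 67NR with CIX. For Polr3e they were Nin (0.135), Mtmr11 (0.154) and Pfdn5 (0.177), for Polr3f Eef1g (0.183), Ric8a (0.189) and Timm13 (0.191), and for Polr3c Rpl32 (0.150), Mrps10 (0.151) and Dtnb (0.155). For Polr3d they were Ifitm3 (0.170), Zfat (0.179) and Exog (0.182), and Ifitm3, an interferon-induced gene, was at 755, 364, 179 and 152 CPM in the same order of groups. No other member was among the 3 genes nearest to any of these 5.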

How the data were processed

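Poly(A)-selected, stranded RNA libraries of 16 samples were sequenced in single reads. The authors quantified the reads with Salmon (0.12 in the submitters' processing notes) on mouse GRCm38 transcripts, used tximport for sums per gene and deposited these estimated counts unnormalized, so reads shared by similar transcripts were split by the model. Here the counts were rounded, TPM was approximated with mean transcript lengths of GENCODE (32832 of 33072 genes matched), and a gene was tested unless more than 3 samples of the comparison had a TPM below 1 (for the interaction, in both lines). As in the study's methods, genes were called with limma-voom at a Benjamini-Hochberg adjusted p below 0.001. TMM scaling and a separate fit of each comparison were chosen here (limma 3.58.1, edgeR 4.0.16, R 4.3.3), and the calls at 0.05 were given as well. The study reported more genes for CIX in 4T1 than the 1089 called here. Its lists hold Polr3b, Polr3c, Polr3e and Polr3f besides Crcp and Polr3d. A common fit of all 16 samples called 2679 genes here, and the reason for the difference from the study was not tested. Samples of a group were biological replicates per the study's methods. The subunit genes, the gene lists and the motifs were chosen with earlier results of these data known. Named were all 9 subunit genes, at most 3 called genes of each list per comparison (or the 2 with the lowest adjusted p where none was called), Polr3gl, Brf1, Maf1, Ddx58, genes with a start within 1000 bases on the opposite strand, and the 3 nearest profiles, except that some genes are counted in their lists and not reported here by name. Alternatives were edgeR's quasi-likelihood test, DESeq2 (1.42.0), other scalings and filters, TPM on a log2 scale, a fit of all samples, sample weights and each sample left out. On data simulated for 11659 genes of 4T1, limma-voom recovered 84% of 4-fold and 0.333% of 2-fold changes at 0.001, and 97.2% and 67.5% at 0.05, and DESeq2 recovered 95.3% and 65.8% at 0.001 and 98.5% and 81.5% at 0.05. These rates hold for the simulation, and recovery in the measured 4T1 samples was not tested. There limma-voom called Epcam (1.71-fold lower) and Larp7 (1.74-fold lower) at 0.001, and did not call Polr3e (2.05-fold higher). The intervals given are those of the fits.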

Additional observations from a re-analysis of the deposited data

Results flagged for a closer look

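The response to CIX differed between the lines by the interaction term, at an adjusted p below 0.001 (limma-voom), for 1 of 9 subunit genes and for the other genes given here, where 7.86% of all genes passed. For Crcp the response of 4T1 exceeded that of 67NR by 2.11 on the log2 scale (SE 0.26, adjusted p = 3.93e-05), with all 4 CIX samples of 4T1 above its 4 vehicle samples and 67NR groups that overlapped. The difference was 2.61 for Rpp30 (adjusted p = 7.71e-07), 1.25 for Irf3 (0.000525, called in 8 of 16 fits with a sample left out), 1.04 for Twist1 (4.72e-05) and 0.66 for Vim (0.000264), the last 2 being mesenchymal markers. It was -1.52 for Trim25 (adjusted p = 4.92e-06), -1.47 for Ddx58 (0.000106), -0.80 for Polr2g (6.05e-05) and -0.85 for Snapc1 (0.000471).

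A sample stood far from the other 3 of its group in 3 of the 40 groups of 4 samples that were examined for the 9 subunit genes and Polr3gl (a gap beyond Dixon's 95% limit), where chance alone gives about 2. Polr3e was at 50.8 CPM in 67NR vehicle sample 13, against 55.0 to 55.6 CPM in the others. That sample stood apart from its group over all genes too. Polr3f was at 21.1 CPM in 67NR CIX sample 6, against 16.0 to 16.8 CPM. Polr3gl was at 10.4 CPM in 4T1 vehicle sample 3, against 13.4 to 13.8 CPM.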

How the results depend on the processing

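The calls of Crcp in 4T1, in the interaction and between the untreated lines, and of Polr3d, Polr3e and Polr3f between the untreated lines, held under each alternative listed above and with each sample left out. The number of subunit genes called with CIX in 4T1 (2) was 7 at a threshold of 0.05, 6 with DESeq2 or all samples in a common fit, and 1 with no filter or filterByExpr, where Polr3d was lost (adjusted p = 0.00157 and 0.00101). In 67NR it was 3 at 0.05. In the interaction (1) it was 5 at 0.05, 3 with DESeq2 or sample weights and 2 on log2(TPM + 1). Leaving out a sample gave 1 to 2, 0 to 0, 1 to 2 and 4 to 5 in the 4 comparisons.

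At 0.05, Polr3a in 4T1 was lost with no scaling beyond library size (adjusted p = 0.0875) and on either TPM scale (0.140 and 0.144), Polr3e in 67NR under 6 of the other settings (0.0514 to 0.113) and Polr3b in the interaction with edgeR, no filter, filterByExpr or sample weights (0.0527 to 0.0966). Polr3k in 4T1 passed 0.05 under 4 settings (0.0264 to 0.0434) and Polr3c in 67NR with edgeR, DESeq2 or sample weights (0.0189 to 0.0452).

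The genes called in all were 1089 in 4T1 (4982 at 0.05, 3096 with DESeq2, 2679 in a common fit, 2523 with sample weights, 287 without sample 7 to 1051 without sample 4, with 721 or fewer for each sample but 4), 45 in 67NR (2054, 1038, 151 and 247 under the same settings, 27 on either TPM scale, 0 to 70 with a sample left out, the 0 without sample 5, 6, 9, 10 or 14, where 3258 to 3406 had an unadjusted p below 0.05), 991 in the interaction (3704 at 0.05, 1980 with DESeq2, 1916 with sample weights, 650 to 1066 with a sample left out) and 4420 between the untreated lines (7442 at 0.05, 4098 to 4909 with a sample left out). In 4T1, 624 were higher and 465 lower, but 462 and 549 on log2(TPM + 1).

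Directions turned for values near 0 that were never called. Crcp in 67NR was 0.0067 with no filter, 0.0093 in a common fit and 0.073 with sample weights, and from -0.096 to 0.087 with a sample left out. The interaction of Polr3g was -0.028 with a pseudocount of 1 and -0.030 with 0.1 on the log2 TPM scale, and from -0.049 to 0.13 with a sample left out. Between the untreated lines Polr3a was 0.033 and 0.035 on these scales and from -0.14 to 0.024 with a sample left out, and Polr3k was 0.060 and 0.063 and from -0.11 to 0.044. The change of the share of Polr3g ranged from -0.638 to 3.18 points in 4T1, from -0.757 to 4.52 points in 67NR and from -10.0 to -6.20 points between the untreated lines with a sample left out. The causes were not tested. No paired analysis was made because the groups share no sample number and no label ties samples of different groups. In simulated data for 4T1, 2-fold changes were recovered at 0.001 for 0.333% of genes with limma-voom or edgeR and for 65.8% with DESeq2. The mean number of false calls was 0, 0 and 5. Recovery in the measured 4T1 samples was not tested.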
